A study of Mus musculus with 9 samples.

Results

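The Hox genes of mouse were examined in RNA sequencing of YAMC cells with and without Cdk8. Members were all genes whose official symbol is Hoxa, Hoxb, Hoxc or Hoxd followed by a number only, matched by Entrez ID. These were 39 of the 28059 gene IDs in the table, with 11 in the Hoxa cluster, 10 in Hoxb, 9 in Hoxc and 9 in Hoxd. Of these, 29 reached 1 RPKM in at least 3 of the 9 libraries and entered the test, and 10 did not. RPKM divides a gene's reads by the length of its model and by the library's reads, so levels of different genes can be set side by side.

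Hox genes encode homeodomain transcription factors that give cells of the embryo their position along the head-to-tail axis. Each cluster is a row of paralogs numbered from anterior (low) to posterior (high), and members with the same number in different clusters are closest in sequence. Adult cells often keep the Hox pattern of the region they came from, and in intestine this includes the posterior genes of the hindgut. Polycomb complexes hold silent Hox genes off, trithorax proteins keep active ones on, and TALE homeodomain proteins bind DNA together with Hox proteins.

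YAMC cells are mouse intestinal cells, given in the labels as small intestine. The line is generally known as conditionally immortalized cells from colon. The 3 groups had 3 libraries each: parental cells (genotype wildtype), Cdk8 knockout clone 1 and Cdk8 knockout clone 19 (both Cdk8 -/-, made with CRISPR), all taken in logarithmic growth. Cdk8 is the kinase of the Mediator kinase module, which joins the Mediator complex to regulate transcription. Each knockout group is 1 clone and no wildtype clone was analysed, so effects of losing Cdk8 and of isolating a clone cannot be told apart. The labels do not say whether replicates were separate cultures, and p-values cover the spread between libraries alone. Both comparisons with parental cells use the same 3 parental libraries.

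The targeted gene was lower in every knockout library. Cdk8 was at 17.5 to 17.7 RPKM in parental libraries, 10.3 to 11.6 in clone 1 and 10.3 to 10.5 in clone 19, which leaves a transcript in both clones. Estimated depth ran from 22.9 to 43.7 megareads. Markers of intestinal epithelium were largely missing: Cdx2 was listed at 0 in all 9 libraries, Epcam did not pass 0.251 RPKM and Vil1 did not pass 0.168. Of 11 epithelial markers 4 were tested, and the list, mostly the keratins Krt8, Krt18 and Krt19, summed to 614 to 632 RPKM in parental libraries, 986 to 1037 in clone 1 and 969 to 976 in clone 19. All 8 mesenchymal markers were tested, with sums of 2045 to 2107, 1940 to 1989 and 1676 to 1750 RPKM. The mesothelial markers Msln, Upk3b, Wt1, Upk1b and Lrrn4 summed to 964 to 966 RPKM in parental libraries. Their sums were 1703 to 1753 in clone 1 and 1760 to 1767 in clone 19. By the test described below, 4 of the 5 were higher and Msln lower in both clones (log2 fold changes of -0.43 and -0.14). Of all tested genes, 30.7% were higher and 25.8% lower in both clones. The part of these markers in the Hox results was not tested.

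All 4 clusters were active, and their balance differed between parental cells and clones. In parental cells, summed Hox RPKM was 54.0 ± 0.873 for Hoxd (SD, n = 3), 53.4 ± 0.860 for Hoxb, 27.1 ± 0.540 for Hoxa and 21.1 ± 0.490 for Hoxc. The Hoxd and Hoxb sums overlapped. The Hoxa sum was 33.6 ± 0.451 in clone 1 and 32.2 ± 0.631 in clone 19, above every parental library. The Hoxb sum was 47.8 ± 1.66 in clone 1 and 41.7 ± 1.497 in clone 19, and the Hoxc sum 16.7 ± 0.556 and 16.5 ± 0.243, all below every parental library. Hoxd sums were closest to parental, at 51.8 ± 0.751 and 51.9 ± 0.942, with their highest library just below the lowest parental one. Over all 39 genes the sum was 155.6 ± 0.244 in parental cells, 149.9 ± 2.41 in clone 1 and 142.3 ± 3.18 in clone 19. The share of Hoxa in it was 17.4% in parental cells, 22.4% in clone 1 and 22.6% in clone 19. The share of Hoxb was 34.3%, 31.9% and 29.3% in the same order.

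**Figure D1:**
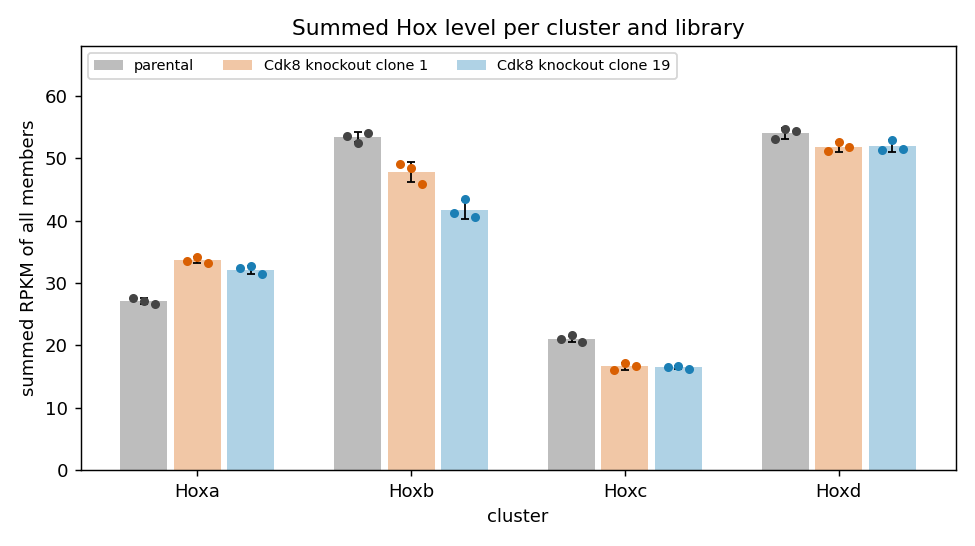
Summed RPKM of all members of each Hox cluster (y axis) by cluster (x axis), with 1 point per library, bars at the group mean and error bars of 1 SD (n = 3). Hoxa sums lie at 26.6 to 27.7 in parental cells and at 31.5 to 34.1 in the clones, while Hoxc sums lie at 20.6 to 21.6 and 16.1 to 17.2.

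By paralog number, the genes numbered 9 were the most abundant, with group means summing to 34.4 RPKM in parental cells, 26.3 in clone 1 and 26.5 in clone 19. Those numbered 8 followed in parental cells at 22.8 RPKM, and 10 at 16.7. Paralogs numbered 12 summed to only 1.58 RPKM there. Hoxd8 was the most abundant Hox gene in each group, with a parental mean of 20.7 ± 0.472 RPKM. That level lay above 67.9% of all tested genes, while Hoxb9, at 8.05 RPKM, lay above 40.1%. The next in parental cells were Hoxd9 at 11.4 ± 0.160, Hoxb7 at 10.6 ± 0.814 and Hoxb6 at 10.6 ± 0.519, and the libraries of these genes overlapped except that Hoxd9 stood above Hoxb6.

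The untested members described here were low or near silent. Hoxb1 was listed at 0 in all 9 libraries. Hoxa11, Hoxa13, Hoxc11, Hoxd1 and Hoxd12 stayed at or below 0.130 RPKM, and Hoxc5 lay between 0.224 and 0.381. Hoxa2, a hindbrain patterning gene, passed 0.5 RPKM in 2 libraries of clone 1, at 0.546 and 0.548, with 0.309 to 0.486 in parental cells. Hoxc8 did so in 1 parental library, at 0.508. Silent and active members lay side by side: Hoxa11 and Hoxa13 were near 0 beside Hoxa10 at 7.69 RPKM, and Hoxd12 beside Hoxd11 at 7.80.

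**Figure D2:**
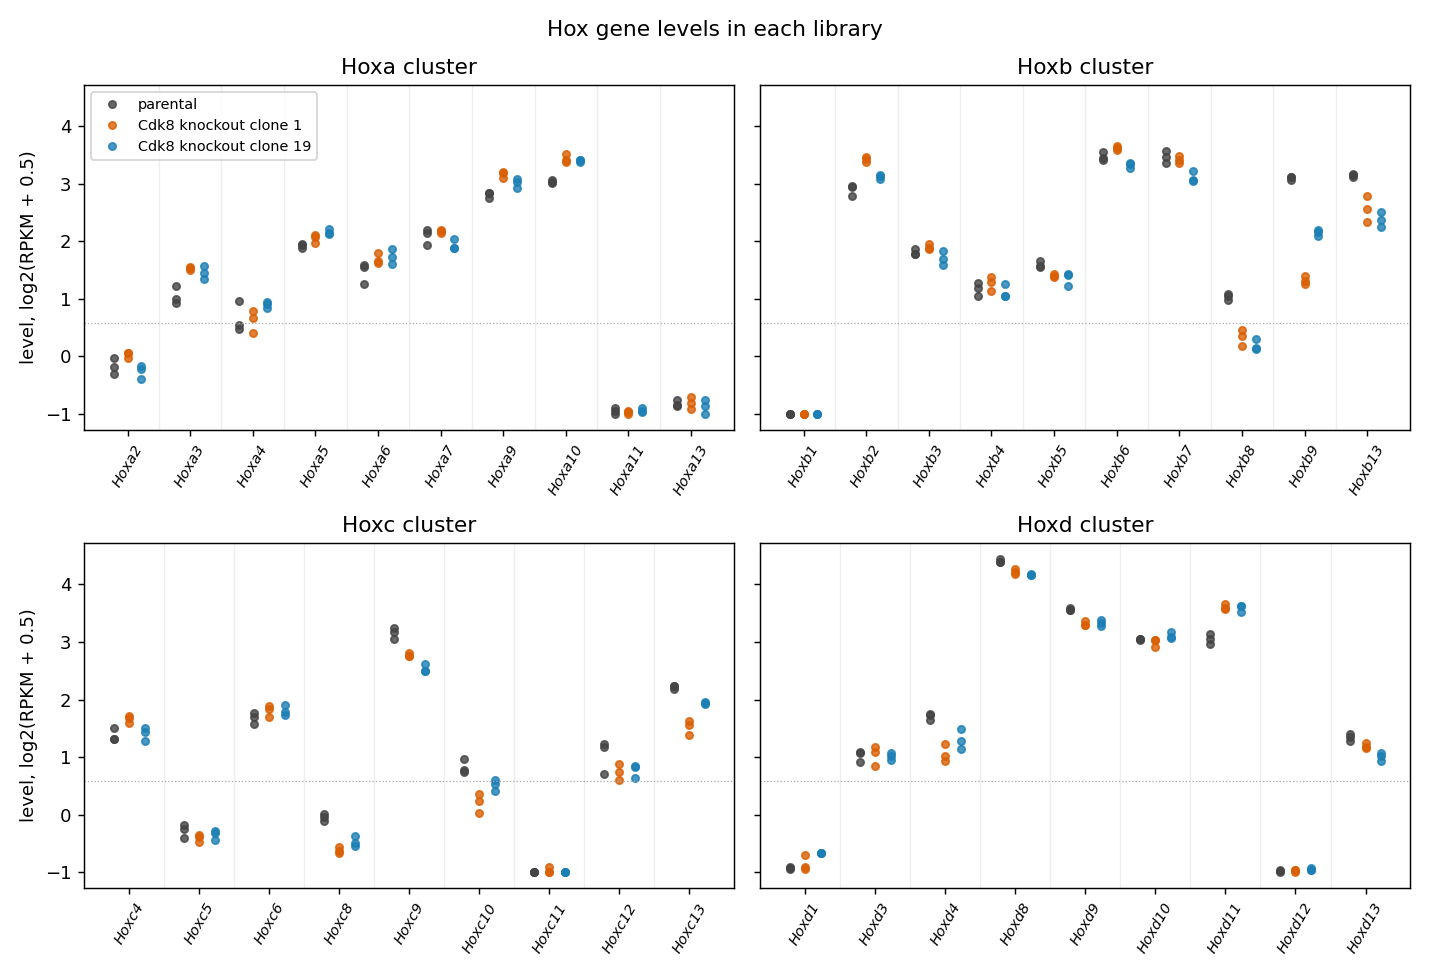
Level of each Hox gene described here as log2(RPKM + 0.5) (y axis) by cluster and paralog number (x axis), with 1 point per library coloured by group and a dotted line at 1 RPKM. Points at -1 are genes listed at 0, such as Hoxb1, and the highest is Hoxd8.

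Calls were made where the adjusted p fell under 0.05 (limma, Benjamini-Hochberg over all 12568 tested genes). Fold changes are differences of log2(RPKM + 0.5), a scale that shrinks the changes of genes at low levels. In clone 1, 18 of 29 Hox genes were called, 7 higher and 11 lower, against 72.4% of all tested genes (39.8% higher and 32.6% lower). In clone 19, 20 were called, 7 higher and 13 lower, against 69.0% of all tested genes (36.7% and 32.3%). The share of Hox genes called was thus 62.1% and 69.0%, near that of all tested genes. The median Hox log2 fold change was -0.04 in clone 1 and -0.14 in clone 19, against 0.03 and 0.02 over all tested genes. Median absolute changes were 0.25 and 0.24, against 0.22 and 0.20. Of the 29, 5 were called higher in both clones (30.7% of all tested genes were) and 11 lower in both (25.8%), and 1 was called in opposite directions (1.93%). Of the 11, Hoxb8 and Hoxc10 reached the filter only through the parental libraries, where they are high, so their place among tested genes with a decrease was set in part by the filter. On this scale a change of at least 2-fold was called in 1 tested Hox gene, Hoxb9 in clone 1, and in none in clone 19. Of all tested genes, 4.46% changed that much in clone 1 (2.67% lower and 1.79% higher) and 4.07% in clone 19 (2.32% lower and 1.76% higher). In plain RPKM means, Hoxb9 went from 8.05 in parental cells to 3.95 in clone 19. Mean RPKM of Hoxb8 went from 1.55 to 0.765 in clone 1 and 0.647 in clone 19. The added 0.5 thus bears on this count.

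**Figure D3:**
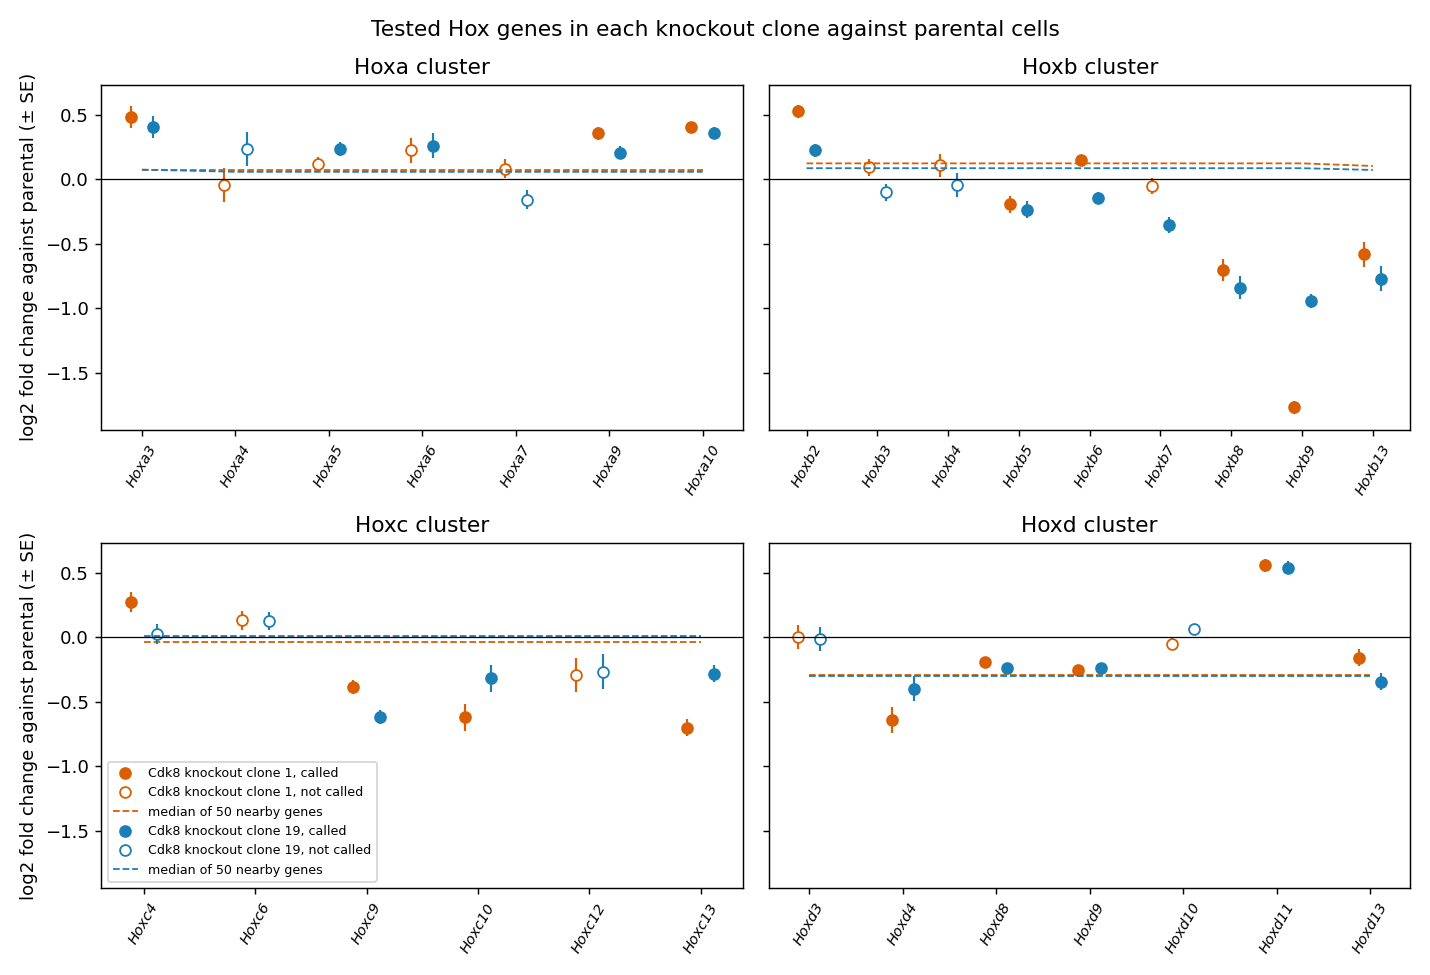
Log2 fold change against parental cells with its SE (y axis) for each tested Hox gene (x axis), by cluster, in clone 1 and clone 19 (n = 3 libraries per group). Filled points passed the test, and dashed lines mark the median change of the 50 nearest tested genes that are not Hox genes. Hoxb9 lies at -1.77 and -0.94, and Hoxd11 at 0.56 and 0.54.

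Upstream sequence is printed for 3 members called in both clones that have a single window in the RefSeq table, to show what the motif counts were made on. Each is the 250 bases before the RefSeq start on GRCm38.p6, 5′ to 3′ on the strand of the gene: Hoxa9 at chr6:52227371-52227620 (minus strand), Hoxb8 at chr11:96281655-96281904 (plus strand) and Hoxd4 at chr2:74721728-74721977 (plus strand). Capitals mark TTTATG on either strand, letters bound by the CDX factors that activate Hox genes in the posterior embryo.
Hoxa9: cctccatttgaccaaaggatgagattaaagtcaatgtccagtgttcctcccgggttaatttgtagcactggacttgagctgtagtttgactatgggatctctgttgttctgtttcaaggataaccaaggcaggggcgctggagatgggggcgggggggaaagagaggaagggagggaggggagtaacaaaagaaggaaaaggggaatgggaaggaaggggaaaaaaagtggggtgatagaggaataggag
Hoxb8: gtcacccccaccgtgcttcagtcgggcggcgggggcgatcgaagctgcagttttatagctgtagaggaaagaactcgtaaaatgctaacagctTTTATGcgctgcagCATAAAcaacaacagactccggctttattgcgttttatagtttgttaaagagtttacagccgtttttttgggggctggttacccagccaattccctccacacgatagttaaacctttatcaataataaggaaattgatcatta
Hoxd4: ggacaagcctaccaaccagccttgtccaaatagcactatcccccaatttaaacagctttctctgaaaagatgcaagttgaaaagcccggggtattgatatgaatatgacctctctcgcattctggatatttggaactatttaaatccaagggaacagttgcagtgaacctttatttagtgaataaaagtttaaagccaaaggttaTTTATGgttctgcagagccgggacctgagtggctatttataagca
The Hoxb8 window holds 2 CDX matches, the Hoxd4 window 1 and the Hoxa9 window none. The RefSeq table had 24 such windows for 22 Hox genes, and 5 of them (20.8%) held TTTATG on either strand, against 10.8% of all 32851 windows. Of the 5 windows of genes lower in both clones, Hoxb8 and Hoxd4 held it and Hoxd8, Hoxd9 and Hoxd13 did not. Of the 6 windows of genes higher in both clones, 1 held it, at Hoxd11. The remaining matches were at Hoxa7 and Hoxd3, called in neither clone. No window was available for Hoxb5, Hoxb9, Hoxb13, Hoxc9, Hoxc10 and Hoxc13, lower in both clones, or for Hoxb2, higher in both. The PBX-HOX letters TGATTNAT were in 2 Hox windows (8.33% against 2.82%) and the MEIS letters TGACAG also in 2 (8.33% against 15.9%). The median window of a Hox gene had 12.5 CpG, against 6 over all windows. Cdx2 and Cdx4, which encode such CDX factors, were listed at 0 in every library, and Cdx1 did not pass 0.0171 RPKM.

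In the Hoxa cluster the called genes were higher in the clones, 3 of 7 tested in clone 1 and 5 in clone 19 (39.8% and 36.7% of all tested genes were higher), with none lower. Hoxa3 (Entrez 15400), needed for thymus and parathyroid formation, was at 1.503, 1.82 and 1.40 RPKM in parental libraries, 2.45, 2.40 and 2.33 in clone 1 and 2.46, 2.23 and 2.04 in clone 19. Every library of both clones was above every parental one. It rose by 0.48 (SE 0.08, adjusted p = 0.00032) in clone 1 and by 0.41 (SE 0.08, adjusted p = 0.0012) in clone 19. Hoxa9, a target of the trithorax protein MLL in blood progenitors, was at 6.67, 6.26 and 6.63 RPKM in parental cells, 8.64, 8.07 and 8.75 in clone 1 and 7.71, 8.003 and 7.11 in clone 19. The 3 groups did not overlap, with clone 1 highest. Hoxa9 rose by 0.36 (SE 0.05, adjusted p = 7e-05) and by 0.21 (SE 0.05, adjusted p = 0.0035). Its neighbour Hoxa10, which patterns the uterus and the lumbar spine, was at 7.86, 7.64 and 7.58 RPKM, then 10.2, 10.95 and 9.94 in clone 1 and 10.1, 9.84 and 10.1 in clone 19. Both clones lay above parental and overlapped each other. Its rise was 0.41 (SE 0.04, adjusted p = 3.8e-06) and 0.36 (SE 0.04, adjusted p = 1.1e-05).

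The middle of the Hoxa cluster moved less. Hoxa5, known for its part in lung development, was at 3.19, 3.38 and 3.33 RPKM in parental cells, 3.42, 3.80 and 3.69 in clone 1 and 3.90, 4.15 and 3.87 in clone 19. It rose in clone 19 by 0.23 (SE 0.05, adjusted p = 0.0022), and its value in clone 1 was 0.12 (SE 0.05, adjusted p = 0.058). Clone 19 stood above both other groups. Hoxa6 was at 2.52, 2.43 and 1.90 RPKM, then 2.65, 2.98 and 2.59 in clone 1 and 2.83, 3.13 and 2.54 in clone 19. Its rise of 0.26 in clone 19 (SE 0.10, adjusted p = 0.032) was not called without parental replicate 3 (0.16, adjusted p = 0.131), clone 19 replicate 1 (0.26, adjusted p = 0.0683) or clone 19 replicate 2 (0.20, adjusted p = 0.121), and in clone 1 it was at 0.22 (adjusted p = 0.057). For both genes every clone library exceeded every parental one. Hoxa4 was at 0.962, 1.46 and 0.890 RPKM in parental cells, 1.24, 0.821 and 1.08 in clone 1 and 1.29, 1.43 and 1.37 in clone 19. Hoxa7 was at 4.08, 3.32 and 3.93 RPKM, then 4.03, 4.08 and 3.93 in clone 1 and 3.18, 3.19 and 3.61 in clone 19. Neither passed the test against parental cells. Hoxa4 was at -0.04 (adjusted p = 0.78) and 0.23 (adjusted p = 0.14). Hoxa7 was at 0.08 (adjusted p = 0.33) and -0.16 (adjusted p = 0.074). Without parental replicate 2, both were called in clone 19, Hoxa4 at 0.39 (adjusted p = 0.0125) and Hoxa7 at -0.24 (adjusted p = 0.00787). Hoxa7 was also called there without clone 19 replicate 3 (-0.21, adjusted p = 0.0324). The same held with the shift of the 50 nearest genes subtracted (-0.23, adjusted p = 0.0212). In the annotation 20.4% of the Hoxa7 exon bases are shared with the antisense gene Hoxaas3, and whether counting used strand is not given in the sources used here.

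The largest decrease of a Hox gene in each clone was in the Hoxb cluster, whose highest-numbered genes Hoxb8, Hoxb9 and Hoxb13 all fell. In that cluster 4 of 9 tested genes were lower and 1 higher in both clones, against 25.8% and 30.7% of all tested genes. Hoxb9 (Entrez 15417), which patterns the ribs and sternum, was at 8.15, 7.84 and 8.17 RPKM in parental cells, 1.90, 1.99 and 2.14 in clone 1 and 3.998, 4.08 and 3.76 in clone 19. The groups were far apart, with clone 1 lowest. Hoxb9 fell by 1.77 (SE 0.05, adjusted p = 2.9e-10) in clone 1 and by 0.94 (SE 0.05, adjusted p = 3.6e-08) in clone 19. Hoxb8 (Entrez 15416), whose forced expression keeps myeloid progenitors immature, was at 1.62, 1.57 and 1.47 RPKM, then 0.635, 0.880 and 0.781 in clone 1 and 0.734, 0.612 and 0.594 in clone 19. All clone libraries were below all parental ones and the clones overlapped. Its decrease was -0.70 (SE 0.09, adjusted p = 2.9e-05) and -0.84 (SE 0.09, adjusted p = 7.7e-06), in a gene that no clone library would have brought past the filter. Hoxb13 (Entrez 15408), a gene of the tail bud, hindgut and prostate, was at 8.42, 8.47 and 8.20 RPKM in parental cells, 6.39, 5.43 and 4.58 in clone 1 and 4.67, 5.18 and 4.27 in clone 19. Clone 1 libraries spread widely, yet all stayed below parental. Hoxb13 fell by 0.58 (SE 0.10, adjusted p = 0.00024) and by 0.77 (SE 0.10, adjusted p = 3.1e-05).

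Between these genes and the anterior end the Hoxb values ran in both directions. Hoxb2, active in the hindbrain and neural crest, was at 7.34, 6.42 and 7.16 RPKM in parental cells, 10.3, 10.5 and 9.86 in clone 1 and 7.96, 8.43 and 8.30 in clone 19. It rose by 0.53 (SE 0.05, adjusted p = 3e-06) and by 0.23 (SE 0.05, adjusted p = 0.002), with no overlap among the groups. Hoxb6 was at 11.2, 10.4 and 10.2 RPKM, then 11.8, 12.0 and 11.5 in clone 1 and 9.15, 9.83 and 9.63 in clone 19. Parental libraries thus lay between the clones, and the gene rose by 0.15 in clone 1 (SE 0.04, adjusted p = 0.0089) and fell by 0.14 in clone 19 (SE 0.04, adjusted p = 0.01). With the shift of the 50 nearest genes subtracted, the clone 1 value was 0.05 (adjusted p = 0.348). Hoxb7 was at 9.78, 10.6 and 11.4 RPKM in parental cells, 10.7, 10.2 and 9.72 in clone 1 and 7.84, 8.83 and 7.81 in clone 19. Only its clone 19 libraries lay apart: it fell by 0.36 there (SE 0.06, adjusted p = 0.00041) and was at -0.05 in clone 1 (adjusted p = 0.49). Hoxb5 was at 2.43, 2.48 and 2.66 RPKM, then 2.13, 2.20 and 2.10 in clone 1 and 2.17, 2.20 and 1.85 in clone 19. All clone libraries were below parental, and Hoxb5 fell by 0.20 (SE 0.07, adjusted p = 0.021) and by 0.24 (SE 0.07, adjusted p = 0.0082). The first of these calls was lost without parental replicate 3 (-0.16, adjusted p = 0.0787) or clone 1 replicate 3 (-0.18, adjusted p = 0.0584), and with quantile normalization (-0.12, adjusted p = 0.124).

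Hoxb3 and Hoxb4 passed the test in neither clone. Hoxb3 was at 2.92, 3.13 and 2.94 RPKM in parental cells, 3.35, 3.20 and 3.14 in clone 1 and 3.08, 2.72 and 2.50 in clone 19, a change of 0.09 (adjusted p = 0.23) and -0.10 (adjusted p = 0.19). Hoxb4, known to expand blood stem cells when overexpressed, was at 1.78, 1.56 and 1.91 RPKM, then 1.71, 1.96 and 2.11 and 1.58, 1.56 and 1.90, a change of 0.11 (adjusted p = 0.3) and -0.04 (adjusted p = 0.67). Hoxb4 libraries overlapped in every comparison. Antisense gene Hoxb3os covers 52.9% of the Hoxb3 and 27.3% of the Hoxb2 exon bases, so reads of these genes could be mixed.

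In the Hoxc cluster the genes called in both clones, 3 of 6 tested, were all posterior and all lower. Of all tested genes 25.8% were lower in both. Hoxc9 (Entrez 15427), which sets motor neuron identity in the thoracic cord, was at 8.97, 8.55 and 7.83 RPKM in parental cells, 6.28, 6.54 and 6.23 in clone 1 and 5.17, 5.66 and 5.16 in clone 19. The groups did not overlap, with clone 19 lowest. Hoxc9 fell by 0.38 (SE 0.05, adjusted p = 7.3e-05) and by 0.62 (SE 0.05, adjusted p = 1.8e-06). Hoxc13, required for hair and nail formation, was at 4.24, 4.23 and 4.05 RPKM, then 2.10, 2.45 and 2.60 in clone 1 and 3.30, 3.35 and 3.40 in clone 19. Here clone 1 was the lowest and again no groups overlapped. Its decrease was -0.70 (SE 0.06, adjusted p = 2.1e-06) and -0.28 (SE 0.06, adjusted p = 0.0025). Hoxc10, a lumbar gene, was at 1.17, 1.46 and 1.21 RPKM in parental cells, 0.516, 0.789 and 0.686 in clone 1 and 1.02, 0.826 and 0.942 in clone 19. It fell by 0.62 (SE 0.10, adjusted p = 0.00029) and by 0.32 (SE 0.10, adjusted p = 0.02), with the clones apart from parental and from each other. Without the parental libraries Hoxc10 would not have passed the filter. The clone 19 call was lost without parental replicate 2 (-0.24, adjusted p = 0.0827) or clone 19 replicate 2 (-0.26, adjusted p = 0.0724).

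The other tested Hoxc genes moved less. Hoxc4 was at 1.996, 2.36 and 1.997 RPKM in parental cells, 2.52, 2.69 and 2.79 in clone 1 and 2.22, 2.34 and 1.93 in clone 19. It rose by 0.28 in clone 1 (SE 0.08, adjusted p = 0.0079), all of whose libraries were above parental, and was at 0.03 in clone 19 (adjusted p = 0.79). Hoxc6 was at 2.74, 2.47 and 2.89 RPKM, then 3.22, 3.06 and 2.76 and 3.23, 2.82 and 2.94, a change of 0.13 (adjusted p = 0.12) and 0.13 (adjusted p = 0.14). Its libraries overlapped throughout. Hoxc12 was at 1.13, 1.76 and 1.83 RPKM, then 1.02, 1.34 and 1.17 and 1.05, 1.28 and 1.29, a change of -0.29 (adjusted p = 0.071) and -0.27 (adjusted p = 0.099). Parental replicate 1 lay among the clone libraries, and without it Hoxc12 was at -0.46 (adjusted p = 0.00271) and -0.43 (adjusted p = 0.00417).

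Of the 7 tested Hoxd genes, 1 was higher in both clones and 4 were lower in both, against 30.7% and 25.8% of all tested genes. Hoxd11 (Entrez 15431), which with its paralogs forms the forearm and kidney, was at 7.27, 7.81 and 8.31 RPKM in parental cells, 11.5, 12.1 and 11.6 in clone 1 and 11.02, 11.8 and 11.8 in clone 19. The clones overlapped and both stood well above parental. Hoxd11 rose by 0.56 (SE 0.05, adjusted p = 1.5e-06) and by 0.54 (SE 0.05, adjusted p = 2.3e-06), the largest rise of a Hox gene in each clone. Hoxd4, a gene of the upper cervical spine, was at 2.61, 2.81 and 2.86 RPKM, then 1.41, 1.85 and 1.53 in clone 1 and 1.93, 2.32 and 1.72 in clone 19. Every clone library was below parental. Its decrease was -0.64 (SE 0.10, adjusted p = 0.00013) and -0.40 (SE 0.10, adjusted p = 0.0041). Hoxd8 was at 20.5, 21.3 and 20.4 RPKM in parental cells, 17.6, 18.0 and 18.8 in clone 1 and 17.4, 17.7 and 17.4 in clone 19. Hoxd9 was at 11.3, 11.5 and 11.3 RPKM, then 9.82, 9.27 and 9.34 in clone 1 and 9.89, 9.60 and 9.23 in clone 19. Both fell in both clones with no overlap with parental: Hoxd8 by 0.19 (SE 0.03, adjusted p = 0.00021) and 0.24 (SE 0.03, adjusted p = 3.7e-05), and Hoxd9 by 0.25 (SE 0.04, adjusted p = 9.5e-05) and 0.24 (SE 0.04, adjusted p = 0.00016).

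Hoxd13, the last gene of the cluster and a digit patterning gene, was at 1.94, 2.14 and 2.06 RPKM in parental cells, 1.75, 1.87 and 1.73 in clone 1 and 1.40, 1.52 and 1.61 in clone 19. It fell by 0.34 in clone 19 (SE 0.06, adjusted p = 0.00065). In clone 1 the decrease was -0.16 (SE 0.06, adjusted p = 0.048), a call lost without parental replicate 2 (adjusted p = 0.145), parental replicate 3 (0.103), clone 1 replicate 1 (0.105), clone 1 replicate 3 (0.124) or clone 19 replicate 2 (0.0586), and also with a pseudocount of 0.1 (0.054), no filter (0.083) or quantile normalization (0.266). Hoxd13 is counted among the genes lower in both clones on that margin. Hoxd10 was at 7.75, 7.72 and 7.76 RPKM, then 7.67, 7.72 and 7.06 in clone 1 and 7.96, 8.49 and 7.89 in clone 19, and Hoxd3 at 1.63, 1.39 and 1.60, then 1.29, 1.75 and 1.62, and 1.53, 1.43 and 1.61. Neither passed the test: Hoxd10 was at -0.05 (adjusted p = 0.35) and 0.06 (adjusted p = 0.22), and Hoxd3 at 0.0045 (adjusted p = 0.97) and -0.01 (adjusted p = 0.92). The transcript model Gm28230 covers 53.1% of the Hoxd3 and 39.2% of the Hoxd4 exon bases, so the reads of this pair may not be separable.

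Genes in the wider neighbourhood of Hoxd were also lower in the clones, while the nearest ones were not uniformly so. The 50 tested genes nearest to the Hoxd cluster that are not Hox genes had a median log2 fold change of -0.29 in clone 1 and -0.30 in clone 19, against 0.07 and 0.06 beside most of the Hoxa genes, 0.12 and 0.09 beside most of Hoxb and -0.03 and 0.01 beside Hoxc. The 5 tested genes of the flanking Hoxd list had medians of only -0.06 and -0.05. Named after their values were seen, Lnpk was at 0.15 (adjusted p = 0.0017) and -0.05 (adjusted p = 0.17), Mtx2 at -0.04 (adjusted p = 0.21) and -0.05 (adjusted p = 0.1) and Atp5g3 at -0.06 (adjusted p = 0.01) and -0.01 (adjusted p = 0.55). The remaining tested members of that list, Hnrnpa3 (-0.66 and -0.49) and Atf2 (-0.22 and -0.17), were lower in both clones. With the shift of the 50 genes subtracted in each library, Hoxd8 was at 0.10 (adjusted p = 0.0149) in clone 1 and 0.03 (adjusted p = 0.448) in clone 19, and Hoxd9 at 0.04 (adjusted p = 0.355) and 0.03 (adjusted p = 0.491). Hoxd13 was then at 0.14 (adjusted p = 0.0796) and -0.07 (adjusted p = 0.335). Hoxd4 was at -0.35 (adjusted p = 0.0105) and -0.13 (adjusted p = 0.291). Hoxd11 stood further out, at 0.85 and 0.81, and Hoxd10 moved to 0.25 (adjusted p = 0.000501) and 0.33 (adjusted p = 5.96e-05), and Hoxd3 to 0.30 (adjusted p = 0.0158) and 0.26 (adjusted p = 0.0329). The part of this lower neighbourhood in the Hoxd values was not tested. The same subtraction left Hoxb9 at -1.87 and -0.99, Hoxb8 at -0.80 and -0.89, and Hoxa10 at 0.35 and 0.29.

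Read by paralog number, the calls in both clones were counted against 30.7% of all tested genes higher in both and 25.8% lower in both. Of the 4 tested anterior genes (numbers 1 to 3), 2 were higher in both clones, Hoxa3 and Hoxb2, and none lower. Of the 13 central genes (4 to 8), none was higher in both, 4 were lower and Hoxb6 was opposite. Of the 12 posterior genes (9 to 13), 3 were higher and 7 lower. These lower counts include Hoxb8 (central) and Hoxc10 (posterior), which reached the filter only through the parental libraries, where they are high. Paralogs with the same number did not move as a set: among those numbered 9, Hoxa9 rose while Hoxb9, Hoxc9 and Hoxd9 fell in both clones, and among those numbered 10, Hoxa10 rose, Hoxc10 fell and Hoxd10 passed in neither. Those numbered 13 (Hoxb13, Hoxc13 and Hoxd13) were all lower in both, with Hoxa13 near 0. Their group means summed to 14.6 RPKM in parental cells, 9.71 in clone 1 and 9.61 in clone 19.

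The clones also differed from each other. In the test of clone 19 minus clone 1, 12 of 29 Hox genes were called, 3 higher and 9 lower in clone 19, against 43.0% of all tested genes (18.5% and 24.5%). Hoxb9 showed the largest difference at 0.82 (SE 0.05, adjusted p = 1.4e-06), since its decrease was deeper in clone 1. Hoxc13 at 0.42 (SE 0.06, adjusted p = 0.00047) and Hoxc10 at 0.30 (SE 0.10, adjusted p = 0.039) were also higher in clone 19. Hoxb7 at -0.31 (SE 0.06, adjusted p = 0.0028), Hoxb2 at -0.30 (SE 0.05, adjusted p = 0.00083) and Hoxb6 at -0.29 (SE 0.04, adjusted p = 0.00034) were the lowest relative to clone 1. On the log2(RPKM + 0.5) scale no tested Hox gene differed 2-fold between the clones, as 0.461% of tested genes did (0.446% higher and 0.0159% lower in clone 19). No such difference was called for Hoxa10 (-0.04, adjusted p = 0.41), Hoxb8 (-0.14, adjusted p = 0.23), Hoxb13 (-0.19, adjusted p = 0.14) or Hoxd11 (-0.02, adjusted p = 0.78).

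**Figure D4:**
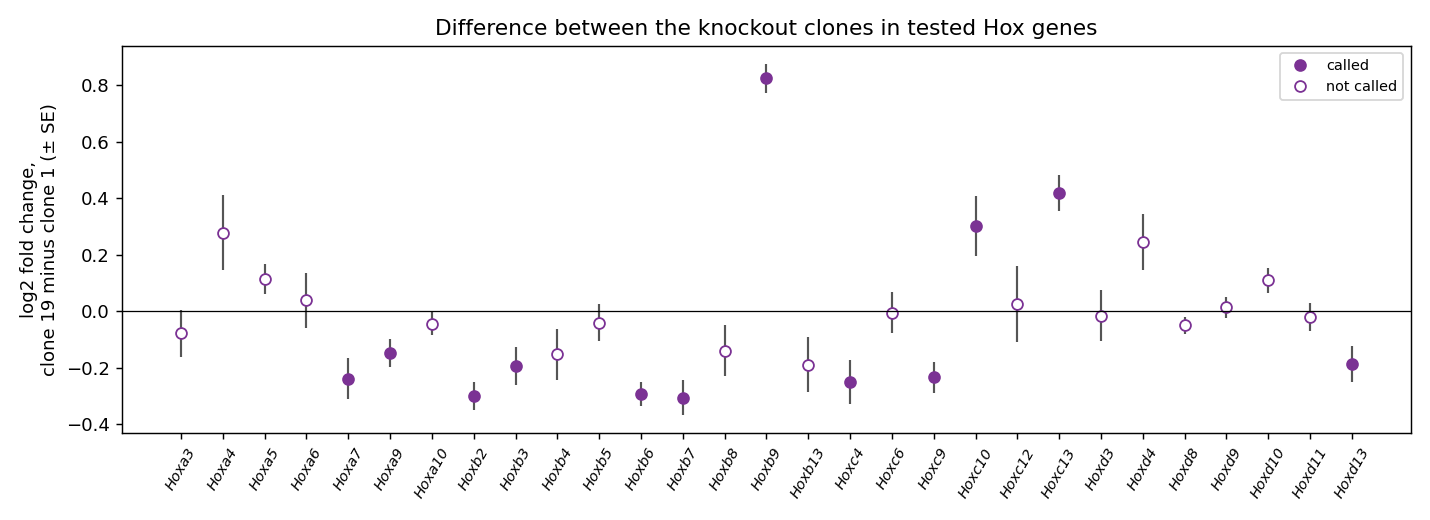
Log2 fold change of clone 19 minus clone 1 with its SE (y axis) for the 29 tested Hox genes (x axis), n = 3 libraries per clone, with filled points where the test was passed. Hoxb9 lies highest at 0.82 and Hoxb7 lowest at -0.31.

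Genes that act with or on Hox genes were counted from fixed lists, with values given as clone 1 then clone 19. Their counts stand beside 39.8% of all tested genes higher and 32.6% lower in clone 1, and 36.7% and 32.3% in clone 19. Among the TALE cofactors, 4 of 9 were higher and 4 lower in clone 1, and 4 and 3 in clone 19. Pknox2 (-1.76 and -1.89), Meis3 (-0.73 and -1.09) and Pbx2 (-0.60 and -0.40) fell, while Meis2 (0.40 and 0.39) rose. Pknox2 passed the filter only through the parental libraries. Of 11 tested PRC2 subunits, which write the repressive H3K27 methyl mark, 3 were higher and 7 lower in clone 1, and 3 and 4 in clone 19. The accessory subunits Phf19 (-1.16 and -1.45), Aebp2 (-0.43 and -0.38) and Phf1 (-0.80 and -0.34) fell, as did Ezh1 (-0.40 and -0.27), a catalytic subunit. Ezh2, also catalytic, was instead called higher (0.15 and 0.12) and was more abundant, at 38.5 RPKM against 3.54 for Ezh1 in parental cells. Phf19, too, passed the filter only through the parental libraries. Of 18 tested PRC1 subunits, 5 were higher and 6 lower in clone 1, and 6 and 7 in clone 19. Pcgf5 (0.76 and 0.83) rose, whereas Bmi1 (-0.41 and -0.37) and Cbx6 (-0.41 and -0.35) fell. Of 13 tested trithorax proteins and H3K27 demethylases, 1 was higher and 6 lower in clone 1, and 2 and 5 in clone 19. Wdr5 (-0.45 and -0.42), the methyltransferase Dot1l (-0.30 and -0.30) and Psip1 (-0.31 and -0.21) fell, and the demethylase Kdm6a (0.27 and 0.21) rose.

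Upstream regulators of Hox genes, which include the CDX factors and the retinoic acid pathway, had 12 of 27 members tested, with 5 higher and 6 lower in each clone, against 72.4% and 69.0% of all tested genes called in either direction. Among the 5 higher, Rarb passed the filter only through the clone 1 libraries, where it is highest, so its place in that count was set in part by the filter. Gdf11, a ligand that sets trunk and tail Hox domains, fell (-1.26 and -1.42), as did the retinoid receptor partner Rxra (-1.42 and -1.13). Aldh1a1, which makes retinoic acid, rose by 1.16 and 1.15, and the endoderm factor Gata6 by 0.84 and 0.84. Of 29 tested homeobox genes and related factors outside the clusters, 10 were higher and 13 lower in clone 1, and 4 and 16 in clone 19. Irx1 (-2.72 and -2.30), Hlx (-0.99 and -1.09), Tgif1 (-0.87 and -0.79) and Prrx2 (-0.94 and -0.75) fell, and Prrx2 would not have passed the filter without the parental libraries. The same holds for Prrx1, counted lower in both clones. Satb1, counted lower in clone 19, needed both the parental and the clone 1 libraries to pass.

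Genes flanking the clusters were mixed, again beside 72.4% and 69.0% of all tested genes called. Beside Hoxa, 1 of 4 tested was higher and 1 lower in clone 1, and 1 and 3 in clone 19, with Tax1bp1 at 0.09 and 0.11 and Snx10 at -0.12 and -0.07. Beside Hoxb, 1 of 3 was higher in each clone and none lower, namely Atp5g1 (0.34 and 0.24). Beside Hoxc, 4 of 7 were higher and 1 lower in each clone, among them Smug1 (0.20 and 0.28), Cbx5 (0.21 and 0.15) and Hnrnpa1 (0.19 and 0.13), with Calcoco1 lower (-0.66 and -0.14). Beside Hoxd, 1 of 5 was higher and 3 lower in clone 1, and none and 2 in clone 19, with Hnrnpa3 (-0.66 and -0.49) and Atf2 (-0.22 and -0.17) lower in both.

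Of 17 listed RNAs transcribed within the clusters, 10 were in the table and 2 were tested. The antisense RNA Hoxaas3 passed in neither clone, with means of 1.199 ± 0.0990 RPKM in parental cells (SD, n = 3), 1.46 ± 0.350 in clone 1 and 1.05 ± 0.223 in clone 19. Mir196b, the gene of a miRNA that represses Hox transcripts, was at 0.731 ± 0.324, 1.98 ± 0.874 and 1.98 ± 0.504 RPKM. Its rise was 0.99 (adjusted p = 0.004) in clone 1 and 1.02 (adjusted p = 0.0036) in clone 19. In GENCODE M21 its hairpin of 85 bases lies wholly within Hoxa9 exon bases on the same strand (1.52% of the Hoxa9 exon bases). It lies upstream of the RefSeq Hoxa9 start used for the printed window, and the annotation behind the RPKM values is not given. Reads counted there may be from Hoxa9 RNA, and a level over so short a stretch is uncertain. The RefSeq hairpin at chr6:52230081-52230165 on GRCm38.p6 (minus strand) is shown with mature miR-196b-5p in capitals.
Mir196b: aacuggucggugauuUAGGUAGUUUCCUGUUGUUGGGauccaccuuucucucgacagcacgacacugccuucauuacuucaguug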

How the data were processed

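RNA of 9 YAMC libraries (3 per group) was measured. The authors deposited 1 table of RPKM values per Entrez gene ID. Per the submitters' processing notes, tools were GSNAP and DESeq and the build NCBIM37, with no versions or roles, and annotation, counting rule and strand use not given in the sources used here. IDs were named from the RefSeq table (24998) and GENCODE M21 only (15), and 3046 had no name. These tables and the promoter and miRNA sequences are of GRCm38, another build than the submitters'. They gave names, gene order and nearest genes, exon overlap, printed sequences, and motif and CpG counts. They also gave the exon lengths behind the estimated depth and the estimated reads of a gene. Depth was estimated from what 1 read was worth in genes above 0 in a single library; no read totals were used and no count test was run.

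Values were tested as log2(RPKM + 0.5) with limma 3.58.1 (R 4.3.3), its eBayes step following the mean-variance trend, for genes with at least 1 RPKM in at least 3 of 9 libraries, with all libraries in 1 model of group means and Benjamini-Hochberg adjustment over all 12568 genes in each contrast. The scripts were tested on simulated data. The members, lists and tests were chosen with earlier results of these data known. Every tested Hox gene is named, and of each other list up to 4 members called the same way in both clones with the largest smaller change. Further members are named where the filter bears on a count and among the genes flanking Hoxd, and Ezh2 is named beside Ezh1. The values of 1 untested Hox gene and of 1 other list gene are not reported here, though both are in the sums and counts. Alternatives were another pseudocount (0.1 or 1), no filter, a stricter filter (3 RPKM), quantile normalization, median-ratio scaling, no trend, a replicate block, only the groups compared, subtraction of the median shift of the 50 nearest tested genes, and each library left out.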

Additional observations from a re-analysis of the deposited data

Results flagged for a closer look

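The effect of 12 Hox genes differed between the 2 knockout clones by the limma test of clone 19 minus clone 1, on the log2 scale. The difference was 0.82 for Hoxb9, 0.42 for Hoxc13 and 0.30 for Hoxc10, each less far below parental cells in clone 19. It was -0.31 for Hoxb7, -0.30 for Hoxb2, -0.29 for Hoxb6, -0.25 for Hoxc4, -0.24 for Hoxa7, -0.23 for Hoxc9, -0.19 for Hoxb3, -0.19 for Hoxd13 and -0.15 for Hoxa9. These were 41.4% of the tested Hox genes, against 43.0% of all tested genes. In all 12 genes the 3 libraries of one clone lay wholly above or below those of the other. The genes were picked by a test on these same libraries, so the lack of overlap adds no support to the calls. The calls for Hoxa7, Hoxa9, Hoxb3, Hoxc4, Hoxc10 and Hoxd13 were each lost under several of the other settings. Hoxc10, for example, had an adjusted p = 0.134 without clone 1 replicate 1 and 0.0518 without parental replicate 3, and Hoxa9 had 0.124 without clone 19 replicate 3.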

How the results depend on the processing

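The 29 tested Hox genes gave 1517 gene-by-setting values that kept direction and call, or that were not called in either fit. In 66 a call was lost, in 27 one was gained and in 7 a value called in either fit changed sign, all 7 with the neighbouring genes subtracted. Those 7 were, in clone 1, Hoxd8 at 0.10, Hoxd9 at 0.0432, Hoxd10 at 0.25 and Hoxd13 at 0.14, and in clone 19, Hoxd3 at 0.26, Hoxd8 at 0.0297 and Hoxd9 at 0.0327. The Hox genes called higher in clone 1 were 11 with quantile normalization. Those called lower were 6 in clone 1 and 8 in clone 19 with the filter at 3 RPKM, where fewer genes were tested. Those lower in clone 19 than in clone 1 were 5 with no filter. The higher and lower calls of clone 1 were 11 and 9 with quantile normalization and 9 and 8 with neighbours subtracted. Those of clone 19 minus clone 1 were 4 and 7 with median-ratio scaling and 3 and 5 with no filter. Over all genes in each fit the split moved too, and is given here as the share of calls that were higher. For clone 1 it was 55% in the main fit, 52.5% with quantile normalization and 56.7% with the filter at 3 RPKM. For clone 19 it was 53.2%, 53.9% with that filter and 51.2% with quantile normalization. Median-ratio scaling gave 50% for clone 1 and 49.7% for clone 19, so the lean to higher calls over all genes depended on the scaling. Hox calls stayed at 7 and 11 in clone 1 and 7 and 13 in clone 19 with that scaling. For clone 19 minus clone 1 the share over all genes was 43.1%, 49% with median-ratio scaling and 45.7% with no filter. No all-gene count was made with neighbours subtracted. The cause of these shifts was not tested.

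With each library left out, clone 1 had 7 to 8 Hox genes higher and 9 to 12 lower, and clone 19 had 6 to 8 and 12 to 14. Clone 19 minus clone 1 had 2 to 4 higher and 5 to 9 lower, with 5 without clone 1 replicate 1 or 2 and 6 without clone 1 replicate 3 or any clone 19 replicate. Over all tested genes the share of calls that were higher was then 54.9% to 55.5%, 52.8% to 53.9% and 42.7% to 44% in these 3 comparisons. Deviations of same-numbered libraries correlated at -0.0353 to 0.123, and those of differently numbered ones at -0.14 to 0.0806. Between parental cells and clone 1, every same-numbered value (0.0678 to 0.123) lay above every differently numbered one (-0.14 to 0.0585). Values this small cannot show whether replicate numbers pair the libraries. With the replicate block, 8 Hox genes were higher and 11 lower in clone 1, 7 and 14 in clone 19, and 3 and 8 in clone 19 minus clone 1. Of the calls over all tested genes, 55.2%, 53.3% and 43.3% were then higher. The Hoxd13 decrease in clone 1 had an adjusted p = 0.0533 with this block. Depth limits the 10 untested genes most, which lay under the filter.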

Other observations

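Some untested members moved when no filter on low values was used (limma, log2(RPKM + 0.5)). Hoxc8, a thoracic gene, was at 0.430, 0.508 and 0.472 RPKM in parental cells, 0.182, 0.129 and 0.148 in clone 1 and 0.187, 0.215 and 0.272 in clone 19. All clone libraries were below all parental ones, and it fell by 0.57 (adjusted p = 3.2e-05) and by 0.42 (adjusted p = 0.00026). Hoxd1, an anterior gene, was at 0.0243, 0.0190 and 0.0325 RPKM in parental cells, 0.116, 0.0329 and 0.0171 in clone 1 and 0.128, 0.129 and 0.130 in clone 19. It rose by 0.26 in clone 19 (adjusted p = 0.0049) and was at 0.08 in clone 1 (adjusted p = 0.33). Hoxa2 was lower in clone 19 than in clone 1 by -0.29 (adjusted p = 0.036), and 0.21 in clone 1 against parental cells did not pass (adjusted p = 0.075). By the estimated depth, a library held about 11.7 to 53.1 reads of Hoxc8, 11.5 to 31.1 of Hoxa2 and 0.984 to 7.93 of Hoxd1. The Hoxd1 values thus rest on few reads.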
